A study of Homo sapiens with 4 samples.

Results

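NCOA4 and 9 genes of cellular iron handling were examined in Ishikawa cells, an endometrial adenocarcinoma line of epithelial origin. The members were the rows for NCOA4, FTH1, FTL, TFRC, SLC11A2, STEAP3, SLC40A1, IREB2, ACO1 and HMOX1, which made 10 of the 26364 gene symbols in the count table, and all 10 were among the 15599 genes that passed the filter on low counts. NCOA4 was chosen because its counts were higher with estradiol (E2) in the cells of both clones, so its E2 values are a description and carry no test. The other 9 were taken by function. All libraries came from cells with a mutant ESR1 gene that encodes the ER-Y537S form of estrogen receptor alpha. Each of 2 clones was kept in hormone-deprived medium and then given vehicle (0.1% DMSO) or 10 nM E2 for 8 h. The 4 libraries, of poly(A)-selected RNA, thus formed a DMSO group of 2 and an E2 group of 2. A library is named here by treatment and by the tag A4 or B212 in its column name, because the tags could not be linked to the clone numbers 1 and 2 of the labels. Each clone is a single line, and nothing in the labels gives separate cultures within a clone, so p-values measure only the spread between these libraries.

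Iron bound to transferrin enters cells through the transferrin receptor, is reduced in the endosome and is carried to the cytosol, where ferritin stores what is not used. NCOA4 binds ferritin and delivers it to lysosomes for breakdown, which releases the stored iron, and it was first described as a coactivator of nuclear receptors. The iron regulatory proteins bind RNA stem-loops called iron responsive elements (IREs): at the start of an mRNA the bound protein blocks translation, and in the 3′ untranslated region (UTR) it protects the mRNA from decay. RNA levels can therefore follow iron supply in TFRC more directly than in ferritin mRNAs, whose control lies largely in translation.

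The sequences of these elements are shown because they are where the iron regulatory proteins act on these mRNAs. A script searched GENCODE 29 transcripts of the 10 members for a C, any 5 bases, CAGTGN and 5 further bases that pair with the 5 before the loop, G with T counted as a pair. The search found the element in 4 of the 10 genes. Over all symbols, with 1 transcript each, 270 of 23774 transcripts (1.14%) held a match. Each element is printed over 27 bases with the CAGTGN loop in capitals:
FTH1: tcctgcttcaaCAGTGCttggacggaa
FTL: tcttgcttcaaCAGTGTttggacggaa
SLC40A1: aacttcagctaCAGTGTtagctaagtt
TFRC, element 1: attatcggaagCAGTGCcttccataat
TFRC, element 2: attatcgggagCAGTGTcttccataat
TFRC, element 3: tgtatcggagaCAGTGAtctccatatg
TFRC, element 4: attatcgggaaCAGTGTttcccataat
The elements of FTH1 (GRCh38, chr11:61967575-61967601, minus strand), FTL (chr19:48965336-48965362, plus strand) and SLC40A1 (chr2:189580662-189580688, minus strand) lie in the 5′ UTR. The 4 of TFRC lie in its 3′ UTR on the minus strand, from chr3:196050980-196051006 (element 1) to chr3:196050464-196050490 (element 4). The FTH1 and FTL elements are identical at 25 of 27 bases. A match is a description of these letters. The search misses any element with another loop or incomplete pairing, so the 4 of TFRC are a count of matches and not of all its IREs. No match in the other members says only that the searched letters were not found, and for SLC11A2 the gene counts cannot separate its mRNA forms.

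Per length, ferritin RNA was the most abundant of the set. Levels in CPM (counts scaled to a common library size) per kilobase of the longest GENCODE transcript were 433.4 ± 21.1 for FTH1, 401.8 ± 60.0 for FTL, 235.4 ± 25.0 for TFRC and 227.7 ± 54.2 for NCOA4 (SD over all 4 libraries, n = 4). IREB2 stood at 38.8 ± 1.10, SLC11A2 at 20.9 ± 3.78, STEAP3 at 9.66 ± 1.12, ACO1 at 7.82 ± 0.492, SLC40A1 at 4.99 ± 1.11 and HMOX1 at 0.736 ± 0.113 on the same scale. The ranges over libraries overlapped between FTH1 and FTL, between TFRC and NCOA4 and between STEAP3 and ACO1. The other neighbours in this order did not overlap. Within every library STEAP3 was above ACO1, most closely in B212 DMSO (8.30 against 7.48). FTL was above FTH1 in both A4 libraries and below it in both B212 libraries. TFRC was above NCOA4 in both DMSO libraries and below it in both E2 libraries, in A4 barely (269.3 against 269.8). The order within these last pairs is thus not settled. The RNA of IREB2, the iron regulatory protein that is degraded when iron is plentiful, was above that of ACO1, which doubles as the cytosolic aconitase, with a count ratio of 3.95 (DMSO) and 3.88 (E2) for A4, against 4.52 and 4.57 for B212. In CPM without the length, TFRC ranked 42 and NCOA4 106 of 15599 tested genes, and HMOX1 ranked 12417.

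**Figure D1:**
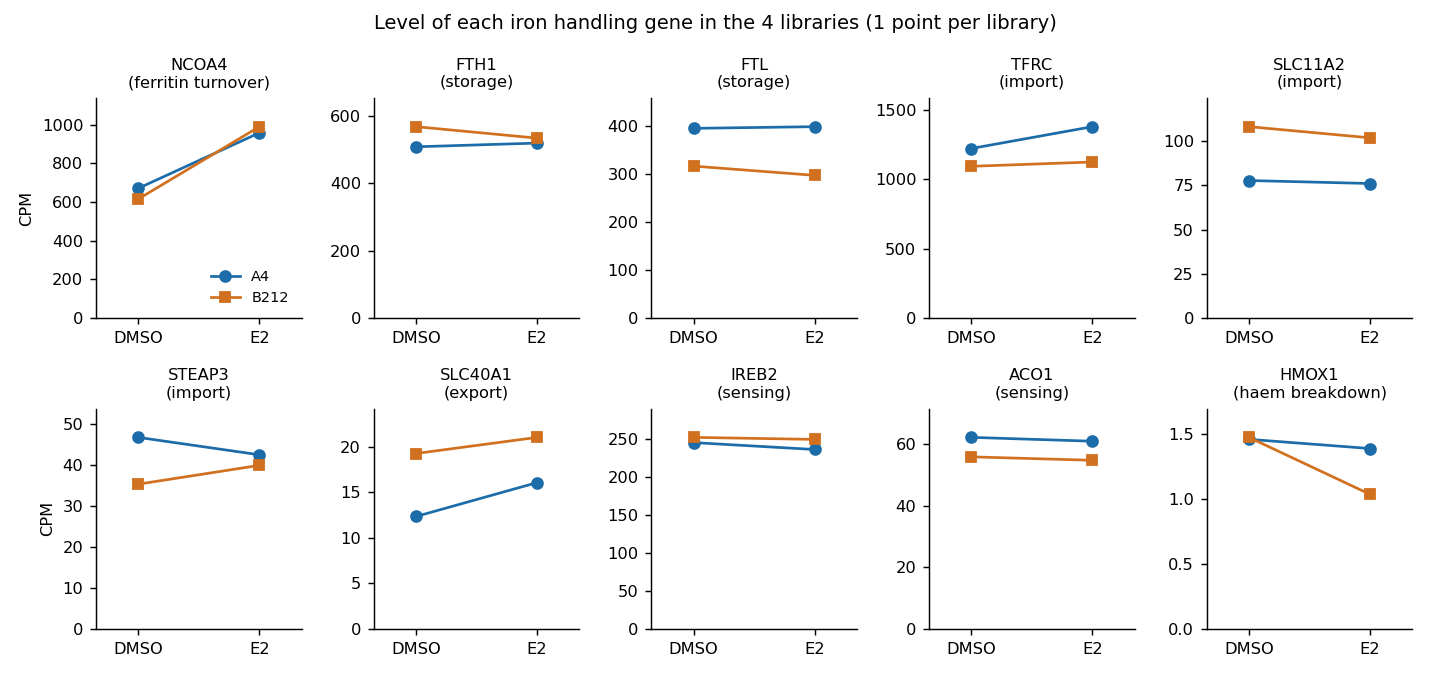
Level of each member in the 4 libraries, in CPM on a linear axis from 0 whose scale differs between panels. Each point is 1 library, the lines join the DMSO and E2 library of a tag, and NCOA4 is the panel where both E2 points, 957.4 and 989.0, lie well above both DMSO points.

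The libraries held 71575816 to 85222856 counts and 18358 to 18861 detected genes. All 8 markers listed for endometrial epithelium were detected, with a summed level of 2301 to 3063 CPM that was higher in both B212 libraries. Of the stromal list, COL1A1 had 92.4 to 127.8 CPM in A4 and 34.5 to 42.4 in B212, while DCN, LUM and PDGFRB were below 0.2 CPM. The summed immune list had 1.60 to 2.39 CPM and the endothelial list 2.11 to 4.50, with CD3E, MS4A1 and PECAM1 at 0, and the erythroid and hepatocyte lists stayed below 0.2 CPM. In bulk RNA, fewer cells of a kind and less RNA per cell cannot be told apart.

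The effect of E2 on cells with the mutant receptor was the first question. NCOA4, the ferritin receptor for autophagy, had 49116 counts with DMSO and 78541 with E2 in A4, against 52540 and 72496 in B212. Scaled to CPM these were 670.7 and 957.4 in A4 and 615.6 and 989.0 in B212, or 643.1 ± 38.9 in DMSO and 973.2 ± 22.3 in E2 (SD, n = 2). Both E2 libraries lay above both DMSO libraries, as they did for 13.2% of all tested genes. The log2 change was 0.51 in A4 and 0.68 in B212, and 0.60 ± 0.075 (SE) when edgeR took the tag as a block, a 1.51-fold higher level. These values chose the gene and are given with no test.

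No other member moved with E2 past the threshold. Of the 9, edgeR's quasi-likelihood test called 0 when blocked on the tag (Benjamini-Hochberg adjusted p under 0.05 over all genes), where 9.56% of all tested genes were called, 6.13% higher and 3.44% lower. Over all genes that was 956 higher and 536 lower, while library sizes alone as the scale called 911 higher and 775 lower. At an unadjusted p under 0.05 there was 1 of the 9, SLC40A1, beside 3953 of all 15599 genes. Both limma-voom and DESeq2 with the block also called 0 of the 9, though DESeq2 gave no adjusted p to part of the genes, SLC40A1 among them. With no block 0 of the 9 and 0 of 15599 genes passed (by unadjusted p, 0 of the 9 and 150 of all were under 0.05), a fit whose spread includes the difference between the tags. The median log2 change of the 9 was -0.029, beside -0.0081 over all genes, with 3 above and 6 below 0. Both tags were higher with E2 for 2 of the 9, TFRC and SLC40A1 (33.3% of all genes), both were lower for 4 (36.8%), and the signs were opposite for 3 (29.8%).

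Storage genes were not called. FTH1, the heavy chain whose ferroxidase centre oxidises the incoming iron, had 508.5 CPM with DMSO and 519.5 with E2 in A4, and 568.2 and 534.2 in B212. Its log2 change with the block was -0.029 ± 0.073 (SE). FTL, the light chain, had 396.1 and 399.6 CPM in A4 and 317.3 and 298.0 in B212, with a log2 change of -0.039 ± 0.071. For both genes the small changes of the tags had opposite signs. The edgeR adjusted p-values were 0.843 (FTH1) and 0.780 (FTL). The ratio of NCOA4 to FTH1 counts, which no scaling touches, went from 1.32 to 1.84 in A4 and from 1.08 to 1.85 in B212. The ratio inherits the choice of NCOA4 and is likewise a description.

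No import gene was called. TFRC, the transferrin receptor, had 1220 CPM with DMSO and 1377 with E2 in A4, against 1092 and 1123 in B212, a log2 change of 0.11 ± 0.075 (adjusted p = 0.395, edgeR). The groups overlapped, with the B212 E2 library below the A4 DMSO library. SLC11A2, the divalent metal transporter that moves iron out of the endosome, had 77.7 and 76.0 CPM in A4 and 108.1 and 101.8 in B212, a log2 change of -0.059 ± 0.069. STEAP3, the endosomal ferrireductase, had 46.8 and 42.5 CPM in A4 and 35.4 and 40.0 in B212. Its log2 change was 0.018 ± 0.085, with no common direction.

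Export gave the value nearest the threshold. SLC40A1, or ferroportin, the iron exporter, had 903 counts with DMSO and 1317 with E2 in A4, against 1642 and 1540 in B212. In CPM these were 12.3 and 16.0 in A4 and 19.2 and 21.0 in B212, so that each tag was higher with E2 while the groups overlapped. Its log2 change was 0.25 ± 0.093 (adjusted p = 0.0966, edgeR), which misses the threshold and does not show that the level was the same. Without the A4 DMSO library the SLC40A1 value with no block was -0.054. The sensors IREB2 and ACO1 had log2 changes of -0.035 ± 0.069 and -0.029 ± 0.073. HMOX1, the inducible haem oxygenase that frees iron from haem, had only 76 to 126 counts per library. Its CPM was 1.46 and 1.39 in A4 and 1.48 and 1.04 in B212, so that both E2 libraries were below both DMSO libraries, as for 11.8% of all genes. Its log2 change was -0.28 ± 0.21 (adjusted p = 0.425, edgeR), an error too wide to show a change of that size.

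**Figure D2:**
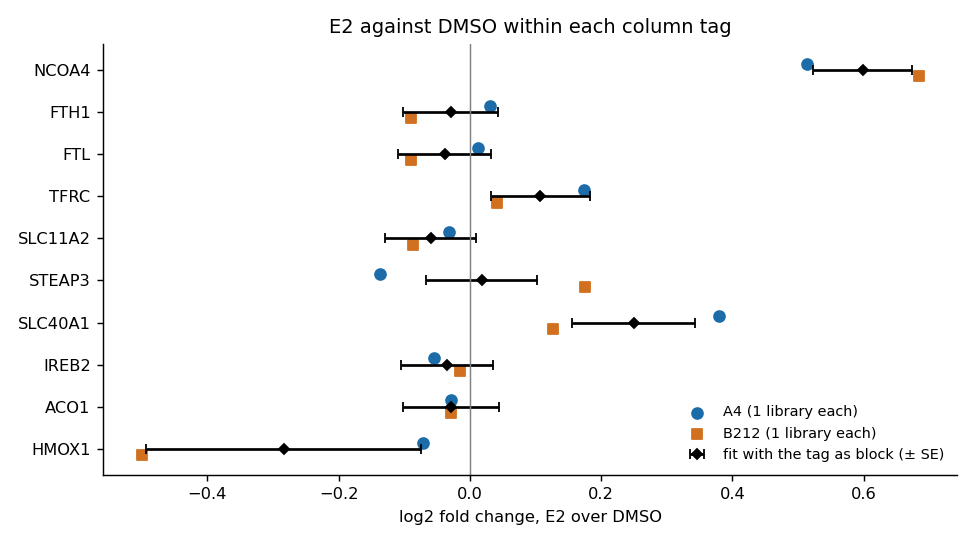
Log2 fold change of E2 over DMSO for the 10 members, in A4 (circles), in B212 (squares) and blocked on the tag (diamonds, bars are SE). NCOA4 stands at 0.60, SLC40A1 at 0.25 and HMOX1 at -0.28, and the diamonds of the remaining members lie within 0.11 of 0.

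The region around NCOA4 was read as a check of shared reads. Among the 3 genes on either side in the table, MSMB, which encodes a secreted protein of seminal plasma and mucosa, lies next to NCOA4 and on the same strand in GENCODE. MSMB had 393 counts with DMSO and 824 with E2 in A4, against 370 and 577 in B212. Its log2 change was 0.90 in A4 and 0.86 in B212, and 0.88 ± 0.11 (SE) blocked on the tag (adjusted p = 1.78e-04, edgeR). MSMB was not called when the block was dropped (adjusted p = 0.9999, edgeR), and its log2 change was 0.59, still called, once a length and GC trend was removed. TIMM23, the neighbour on the other side, had a log2 change of 0.15 ± 0.074 (adjusted p = 0.205, edgeR). The other 4, TIMM23B, AGAP7P, AGAP6 and FAM21EP, were not called. MSMB held 2164 counts over the libraries and NCOA4 252693. Whether reads of the 2 neighbours were shared was not tested. Of the 50-base words in the NCOA4 transcript, 5.51% occurred in other genes, and those were its pseudogene copies NCOA4P3 and NCOA4P4.

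**Figure D3:**
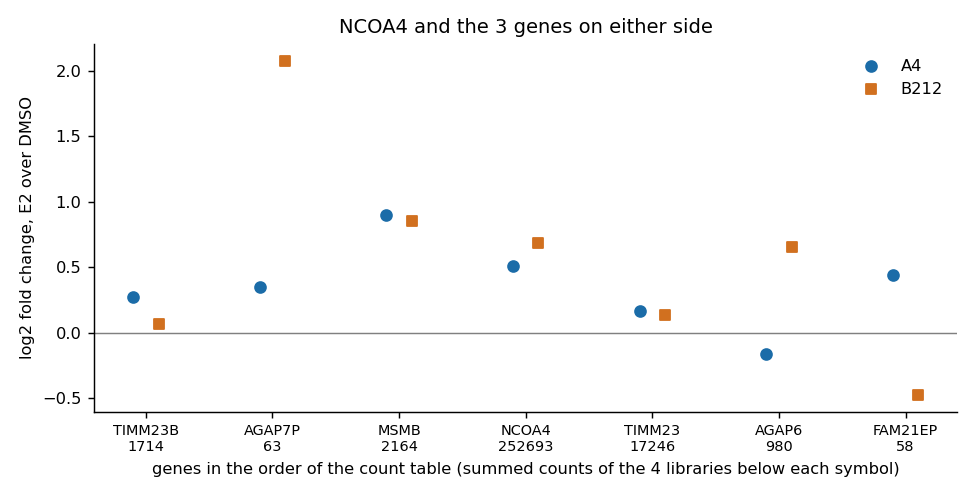
Log2 fold change of E2 over DMSO in A4 and B212 for NCOA4 and the 3 genes on either side in the table's order, with each gene's counts summed over the 4 libraries. MSMB (0.90 and 0.86) and NCOA4 (0.51 and 0.68) are higher in both tags, and AGAP7P and FAM21EP rest on 63 and 58 counts.

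The NCOA4 promoter windows are shown because NCOA4 was chosen for its values with E2. RefSeq (GRCh38.p14) gives 2 windows for NCOA4, each from 250 bases before to 50 after a transcript start, on the minus strand. Capitals mark GGTCA on either strand, 1 arm of the estrogen response element (ERE), and the core of the antioxidant response element (ARE), TGACNNNGC on either strand:
NCOA4, chr10:46030574-46030873: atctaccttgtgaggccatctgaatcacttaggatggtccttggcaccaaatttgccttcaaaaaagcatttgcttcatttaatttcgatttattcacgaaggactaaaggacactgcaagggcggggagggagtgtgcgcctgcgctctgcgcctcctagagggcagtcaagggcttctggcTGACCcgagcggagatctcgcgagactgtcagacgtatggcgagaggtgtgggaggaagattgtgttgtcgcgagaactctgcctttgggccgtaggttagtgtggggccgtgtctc
NCOA4, chr10:46019950-46020249: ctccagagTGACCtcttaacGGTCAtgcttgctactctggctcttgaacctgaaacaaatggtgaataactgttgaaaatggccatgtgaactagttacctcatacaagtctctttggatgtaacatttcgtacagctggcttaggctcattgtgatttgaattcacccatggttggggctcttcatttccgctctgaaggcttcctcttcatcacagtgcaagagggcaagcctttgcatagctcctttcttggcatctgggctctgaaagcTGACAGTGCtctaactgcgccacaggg
The upstream window held 1 ERE arm and no ARE core, and the other window held 2 ERE arms and 1 ARE core. ERE arms occurred in 37.4% and ARE cores in 13.3% of the 35116 windows of all genes. The full ERE, GGTCA and TGACC with any 3 bases between, which contains 2 arms, was in none of the 13 windows of 8 members and in 0.057% of all windows. RefSeq windows were matched for all members but FTH1 and HMOX1. A match or its absence here says nothing about binding.

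By a rule on the pattern over the 4 libraries, the genes most like NCOA4 were SNORD47, SMG1P2, RBM11, SNORD44 and FBXW10. The measure was the root mean square difference of log2 CPM centred on each gene's mean, over 4 libraries and 12488 other genes with a mean of at least 100 counts. It ran from 0.055 for SNORD47 to 0.085 for FBXW10. The row for SNORD47, a small nucleolar RNA, had 476 and 760 counts in A4 and 520 and 650 in B212, in the order DMSO and E2. The RNA was poly(A)-selected. Whether reads in the SNORD47 and SNORD44 rows came from longer transcripts over them, or from the same one, was not tested. All 5 were far less abundant than NCOA4. Among the other numbered coactivators, NCOA1, NCOA2, NCOA3, NCOA5, NCOA6 and NCOA7 had a log2 change with E2 of -0.17, -0.13, -0.032, -0.060, -0.093 and 0.058, and none was called by edgeR with the block.

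The tag comparison asked how the cells of the clones differ in iron genes, with treatment as a covariate. The rule for the members did not use this contrast. Of the 10 members, 5 passed the threshold (edgeR, Benjamini-Hochberg adjusted p under 0.05 over all genes), 2 higher and 3 lower in B212. The share called among all genes was 51.0%, with 25.2% higher and 25.8% lower, so the count of members is near the background and is no result about them as a set. Their median log2 difference was -0.096, beside 0.0042 over all genes. These are differences between single clones, both with the mutation. COL1A1, of the stromal list, was lower in both B212 libraries, while DCN, LUM and PDGFRB had at most 13 counts in any library. The summed epithelial markers were higher in B212. Of that list, ESR1 (109.9 and 97.0 CPM in A4, 107.4 and 86.5 in B212) and KRT18 (459.6 and 392.1 in A4, 503.7 and 406.7 in B212) overlapped between the tags. The part of these markers in the differences below was not tested.

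SLC40A1 was higher in B212, with 12.3 and 16.0 CPM in the A4 libraries against 19.2 and 21.0 in B212. Both B212 libraries were above both A4 libraries, as for 34.7% of all genes. The log2 difference was 0.51 ± 0.094 (SE; adjusted p = 1.27e-04, edgeR). SLC11A2 was also higher in B212, by 0.45 ± 0.069 on the log2 scale, with 76.0 to 77.7 CPM in A4 and 101.8 to 108.1 in B212 and an edgeR adjusted p-value of 2.12e-05. The direction and call of both held under both other scalings. The treatment-free fit kept them as well, but leaving out 1 library lost SLC40A1 (without A4 DMSO or B212 E2) or SLC11A2 (without B212 DMSO). Those fits without a library also lacked the treatment term. In them the SLC40A1 difference was 0.33 without A4 DMSO and ran up to 0.70 without A4 E2.

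FTL was lower in B212, at 298.0 and 317.3 CPM against 396.1 and 399.6 in A4. Both B212 libraries were below both A4 libraries, as for 32.8% of all genes. The log2 difference was -0.37 ± 0.071 (adjusted p = 2.12e-04, edgeR), and FTL was not called without either B212 library. FTH1, whose IRE is printed above beside that of FTL, was 0.10 ± 0.073 higher on the log2 scale and was not called (adjusted p = 0.262, edgeR). The ratio of FTH1 to FTL counts was 1.28 (DMSO) and 1.30 (E2) for A4, against 1.79 and 1.79 for B212. The 95% counting intervals were 1.26 to 1.30 and 1.28 to 1.32 in A4 and 1.77 to 1.82 and 1.76 to 1.82 in B212. The chain ratio was thus 1.40 times (DMSO) and 1.38 times (E2) as high in B212, while E2 moved it by a factor of 1.01 in A4 and 1.00 in B212. The intervals cover counting error only. Of the 50-base words, 40.4% of FTH1 and 18.3% of FTL occur in other genes (15 genes for FTH1, the copies FTLP2 and FTLP3 for FTL), so their counts depend on how such reads were assigned. FTH1P3, the copy in the table with the most counts, had 85 to 103 per library, and BEST1, which overlaps FTH1 on the opposite strand, had 72 to 121.

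TFRC, with 4 matches to the searched IRE letters in its 3′ UTR, was lower in B212. The log2 difference of TFRC was -0.23 ± 0.075 (edgeR adjusted p-value 0.0165), at 1092 and 1123 CPM against 1220 and 1377 in A4. STEAP3 was lower by -0.25 ± 0.085 (edgeR adjusted p-value 0.0195). Its CPM was 35.4 and 40.0 in B212 and 42.5 and 46.8 in A4. Both calls were lost when library sizes alone set the scale. That scale moved the share of higher calls among all called genes from 49.4% to 60.0%. Dropping the treatment term with all libraries kept also lost both (edgeR adjusted p-values 0.135 for TFRC and 0.131 for STEAP3). Fits without 1 library lacked the treatment term too. In them the difference ran from -0.31 to -0.15 (without A4 E2) for TFRC and from -0.34 to -0.18 for STEAP3. DESeq2 did not call STEAP3. STEAP3-AS1, antisense to STEAP3, had 2 to 15 counts. ACO1 was lower by -0.15 ± 0.073 (adjusted p = 0.0834, edgeR). After removal of a length and GC trend, the ACO1 difference was -0.21 and its adjusted p was 0.00526. IREB2 differed by 0.059 ± 0.069, HMOX1 by -0.19 ± 0.21 and NCOA4 by -0.038 ± 0.075, none of them called. Per library, the ratio of TFRC to SLC40A1 counts, importer to exporter, was 99.0 and 85.7 in A4 and 56.7 and 53.5 in B212.

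**Figure D4:**
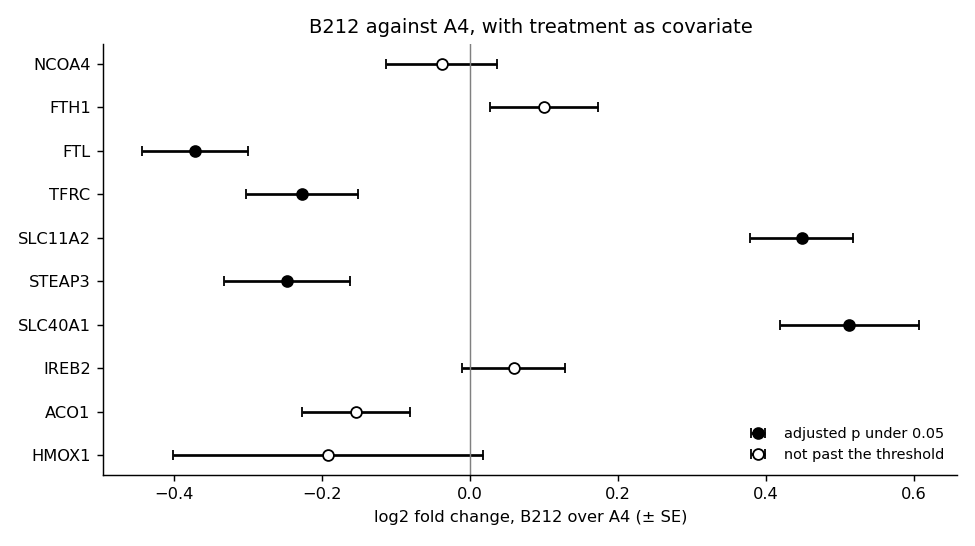
Log2 fold change of B212 over A4 for the 10 members with treatment as a covariate (bars are SE). Filled points are past the adjusted threshold: SLC40A1 and SLC11A2 at 0.51 and 0.45, and FTL, STEAP3 and TFRC at -0.37, -0.25 and -0.23.

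A wider list of 84 further iron genes put these members in context, and 73 passed the count filter. Those that did not pass included HAMP, the gene for the hormone hepcidin, and FTMT, mitochondrial ferritin, each with 0 counts in every library. With E2, 5 of 73 (6.85%) were called when blocked on the tag, 4 higher and 1 lower, fewer as a share than the 9.56% of all genes. The list median was 0.0021 beside -0.0081 over all genes. With no block 0 were called, and 1 had an unadjusted p under 0.05.

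BOLA3, a factor of mitochondrial iron-sulphur cluster assembly, rose by 0.44 on the log2 scale, from 23.4 to 36.1 CPM in A4 and from 24.8 to 29.6 in B212. SKP1, a subunit of the ubiquitin ligase that also holds the iron sensor FBXL5, rose by 0.37. FBXL5 itself, with 0.33 in A4 and 0.11 in B212, had an adjusted p of 0.0661 and was not called. ATG5 (0.26) and HSCB (0.34) also rose, and ATG9A fell by 0.26, with edgeR adjusted p-values of 0.0326, 0.0451 and 0.0279. BOLA3 and SKP1 also passed with DESeq2 and with its size factors in edgeR, while ATG5 and ATG9A passed neither and HSCB passed neither with the size factors nor with limma-voom. With a library left out and no block none of the 5 was called, and the log2 changes ran from 0.28 to 0.58 (BOLA3), 0.20 to 0.51 (SKP1), 0.13 to 0.39 (ATG5), 0.025 to 0.62 (HSCB) and -0.34 to -0.18 (ATG9A), the lowest of BOLA3, SKP1 and HSCB without A4 E2, that of ATG5 without A4 DMSO. ATG5 and ATG9A are autophagy genes, and the remaining 13 of the 15 tested genes of ferritin storage and turnover were not called. Genes called higher with E2 had a median transcript length of 2124 bases, against 5059 for those called lower and 3317 for those not called. Their median GC was 43.1%, against 56.2% for those called lower and 49.0% for those not called. Once a trend on length and GC was removed, the log2 change was 0.38 for SKP1, which stayed called. BOLA3 was then at 0.24, HSCB at 0.18, ATG5 at 0.16 and ATG9A at -0.14, and these 4 were no longer called (edgeR adjusted p-values 0.0710, 0.228, 0.119 and 0.164). NCOA4, at 3549 bases and 43.1% GC, had a log2 change of 0.56 in that fit.

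Between the tags 42 of 73 (57.5%) were called, 11 higher and 31 lower in B212, where 51.0% of all genes were called. The share called lower was 42.5% of the list and 25.8% of all genes, and the list median was -0.15 beside 0.0042. With library sizes alone as the scale the split was 16 higher and 22 lower, beside 4761 higher and 3176 lower of all 15599 genes. SLC39A8, a zinc and iron importer, was higher by 2.65 ± 0.076 (log2, SE), at 126.2 and 130.4 CPM in A4 and 779.8 and 832.2 in B212. LCN2, which binds iron-carrying siderophores, was higher by 2.22. CP, the ferroxidase ceruloplasmin that works with ferroportin, had 0.085 to 0.15 CPM in A4 and 9.28 to 10.2 in B212. With 11 and 7 counts in A4 against 873 and 680 in B212, CP passed the count filter only through B212. Its log2 difference of 6.37 is thus a description with no test, although CP is counted among the 11 called higher. SLC39A14, the closest relative of SLC39A8, went the other way by -0.62 ± 0.069. SLC48A1, a haem transporter, differed by -0.77 ± 0.072. The largest edgeR adjusted p-value among these genes other than CP was 3.25e-07, that of SLC39A14.

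Genes of the NRF2 and BACH1 axis, which controls transcription of ferritin and HMOX1, were mostly lower in B212: 9 of 11 were called lower, 1 higher (BACH1, the repressor, 0.21) and GPX4 was not called. Over all genes 25.8% were called lower and 25.2% higher. BACH1 was not called higher with DESeq2, with no gene filter, with the length and GC trend removed or with no treatment term. TXNRD1, thioredoxin reductase, differed by -0.59 ± 0.071 and SLC7A11, the cystine importer, by -0.57 ± 0.071, with edgeR adjusted p-values of 1.03e-06 and 1.27e-06. NQO1 differed by -0.42, GCLM by -0.38 and NFE2L2, which encodes NRF2, by -0.21. KEAP1, the inhibitor of NRF2, was also among the 9 called lower (-0.28, edgeR adjusted p-value 0.00310). Each alternative run gave 9 negative differences, but fewer were past the threshold in some. With library sizes alone 7 of the 11 were called lower, beside 3176 of all 15599 genes. With no treatment term it was 5 of the 11, beside 2159 of all genes. Fewer were also called lower with a library left out, in fits where a tag had only 1 library. HMOX1 and FTH1, both known targets of this axis, were not called, and FTL was lower. With E2 none of these 11 genes passed in edgeR with the block or in DESeq2, and 1 was called lower once the length and GC trend was removed. At an unadjusted edgeR p under 0.05 there were 3 of the 11, beside 3953 of all 15599 genes.

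**Figure D5:**
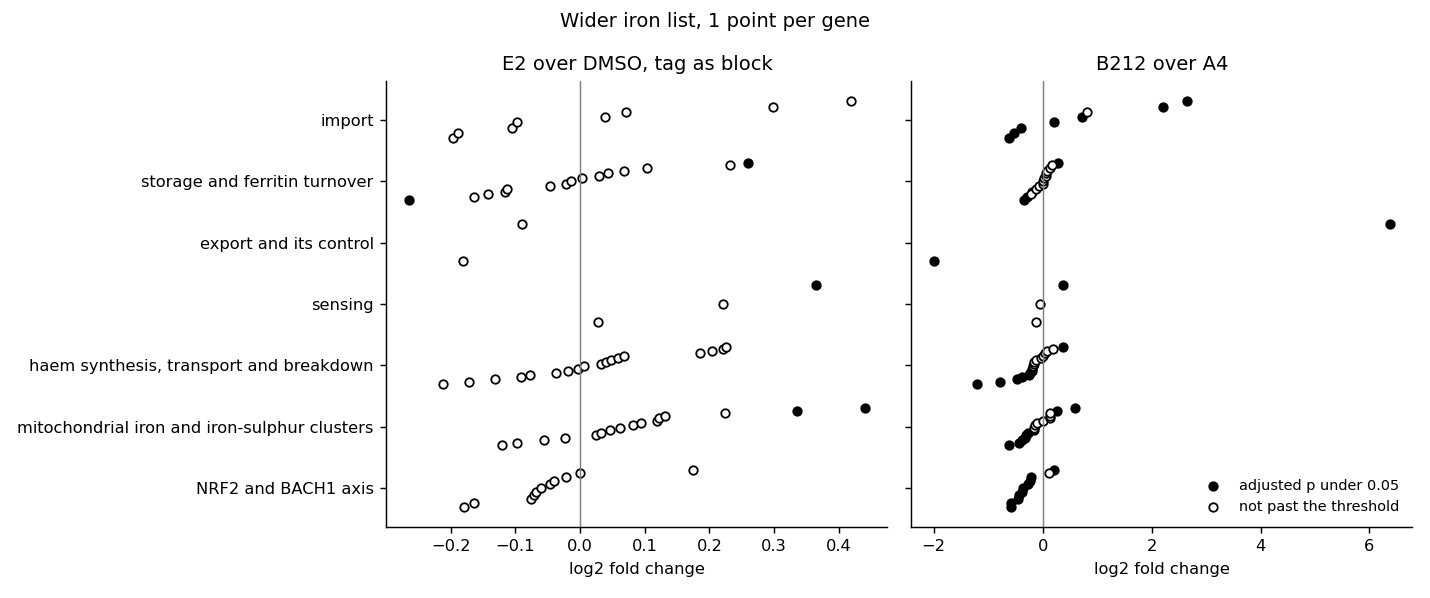
Log2 fold change of each tested gene of the wider iron list, grouped by role, for E2 over DMSO (left) and B212 over A4 (right, on a wider axis). Filled points are past the adjusted threshold, 5 of 73 on the left and 42 of 73 on the right.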

How the data were processed

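Messenger RNA was sequenced in 4 libraries. Values as deposited were whole-number, unnormalized counts of reads for each gene symbol. HISAT2, SAMtools, featureCounts, DESeq2 and the build hg19 are named in the submitters' processing notes; versions, strand setting and annotation are not given in the sources used here. Another 4 columns matched no sample and were not used. No row lacked a gene name.

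Genes were kept by filterByExpr of edgeR 4.0.16 (minimum count 10) with TMM scaling. E2 against DMSO was fitted by edgeR's quasi-likelihood test without a block, and with the column tag as a block; B212 against A4 had treatment as a covariate. P-values were Benjamini-Hochberg adjusted over 15599 genes, with a threshold of 0.05. Each standard error was the log2 fold change over the root of its F. Log2 CPM had a prior count of 2.

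The pairing is the tag of the column names, since same-tag libraries come from 1 clone. Deviations of same-tag libraries from their group means had r = 0.871 across genes. Every pair of libraries differed beyond sampling noise (chi-square per degree of freedom at least 27.1).

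Counts were simulated with tag differences as measured, and 200 of 15462 genes were changed by 1 on the log2 scale. The E2 fit with the block recovered 200, with 12 false calls, and the one without recovered 0. The change was the same in both tags and was placed only in well counted genes. Recovery of smaller or unequal changes, or in genes with few counts, was not tested.

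The members, lists and tests were chosen with earlier results of these data known. Named were the 10 members, genes like NCOA4 and its neighbours. Of the wider list, up to 5 genes in each direction with the smallest p and at least 50 counts on average were named. Other genes of that list (FBXL5, BACH1, KEAP1, GPX4, NQO1, GCLM, NFE2L2, HAMP, FTMT) were named after their values were seen. A gene that met the rule is not reported here. Alternatives were other scalings, filters, DESeq2 1.42.0, limma-voom (limma 3.58.1), a length and GC trend (mgcv 1.9.3, with 93.5% of tested genes matched to GENCODE 29) and leaving out libraries. A fit without 1 library also dropped the tag block (for E2) or the treatment covariate (between the tags). R 4.3.3 and matplotlib 3.10.9 were used.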

Additional observations from a re-analysis of the deposited data

Results flagged for a closer look

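For 3 of the 10 members the E2 change had opposite signs in the A4 and B212 libraries, as it had for 29.8% of all tested genes. With 1 library for each tag and treatment, these differences were not tested. FTH1 had a log2 change of 0.031 in A4 and -0.089 in B212, FTL 0.013 and -0.090, and STEAP3 -0.14 and 0.18. The changes of FTH1 and FTL were close to each other within each tag.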

How the results depend on the processing

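Every alternative was planned. With no block, 0 genes were called for E2, also under both scalings, both filters, limma-voom and leaving out a library; DESeq2 called 1, and the tag as a replicate block 1492. With the block, DESeq2 size factors gave 717, DESeq2 562 and the length and GC trend 811 genes. The 1492 were 956 higher and 536 lower; library sizes alone called 1686 genes, 911 higher and 775 lower. Leaving out a library, without a block, gave 0. None of the 9 members was called under any setting. The wider list's 5 became 2 with DESeq2 size factors or DESeq2, and 0 with no replicate block or a library left out. Between the tags, 7950 genes became 4456 with no treatment term and 3094 to 5639 without a library; the 5 members became 3 with library size only or no treatment term and 1 to 4 without a library; the wider list's 42 became 21 and 13 to 29. Between the tags, the fits without a library also lacked the treatment term. The cause was not tested.

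Signs of values near 0 turned. For E2, STEAP3 was -0.0021 with library size only and ACO1 0.038 with the trend removed. Without a library, fits with no block ran from -0.11 to 0.051 (FTH1), -0.28 to 0.16 (FTL), -0.059 to 0.25 (TFRC), -0.29 to 0.19 (SLC11A2), -0.18 to 0.22 (STEAP3), -0.054 to 0.59 (SLC40A1) and -0.13 to 0.050 (ACO1). Between the tags, NCOA4 was 0.029 with library size only and IREB2 was -0.074 with the trend removed. Without a library, fits that also lacked the treatment term ran from -0.40 to 0.25 (NCOA4) and from -0.48 to 0.051 (HMOX1). Treatment was then unequal between the tags, so an E2 change can enter these differences. Low counts limit HMOX1, and 2 libraries a group limit every value.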
